A study of Mus musculus with 16 samples.

Results

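Ly6c2 and Ly6a are the genes described here, 2 of the 9428 genes in a table of single lymph node T cells, taken as those 2 rows across all 3266 cells with no choice among cells. The cells were sorted as CD8+CD44+ from the draining lymph node of C57BL/6 mice, 16 weeks old, with melanoma-associated vitiligo (loss of skin pigment that accompanies an immune response to melanoma), 45 days after the tumor had been removed by surgery. T cell receptor sequences were read from the same lymph node cells and from skin. The gene table is 1 library spread over 4 sequencing lanes, with no untreated or tumor-free group, and the sources used here do not give the number of mice pooled. It therefore allows no test between groups: cells are not replicates, every interval below is an exact 95% interval for counting error only, and no p-value is given.

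Both genes encode small proteins of the Ly6 family, which are held on the outer face of the cell membrane by a glycosylphosphatidylinositol (GPI) anchor. Ly6C, the product of Ly6c2 and of its near-copy Ly6c1, is used in flow cytometry to tell memory CD8 T cells apart and has been linked to their adhesion and entry into lymph nodes. Sca-1, the product of Ly6a, is best known as a marker of mouse blood stem cells, and on T cells it is raised by activation and by interferons. Isg15 is a ubiquitin-like protein made in response to interferon, Itgae encodes the CD103 integrin chain that holds T cells to epithelium, and Ccl5 encodes a chemokine stored by memory CD8 T cells.

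On mm10, Ly6c2 lies on chromosome 15 from 75108158 to 75111970, on the minus strand, and Ly6a on the same strand of the same chromosome from 74994877 to 74998031, a gap of 110126 bases. Ly6c1 lies between them, from 75044018 to 75048830, and has no row in the table. The first GENCODE transcripts of Ly6c1 and Ly6c2 were identical at 802 of 822 aligned bases (97.6%), so reads of the pair can be split or joined by the counting, and Ly6c2 counts may hold Ly6c1 RNA. Ly6a and Ly6c2 transcripts were identical at 673 of 801 aligned bases (84.0%). The partner genes lie elsewhere: Isg15 spans 156199424 to 156200818 of chromosome 4, and chromosome 11 carries Itgae (start 73090583, end 73147446) and Ccl5 (start 83525778, end 83530518).

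The 250 bases before the start of Ly6c2 (RefSeq, GRCm38.p6, chr15:75111972-75112221, minus strand) are shown beside those of Isg15 (chr4:156200819-156201068, minus strand), because Isg15 is the interferon gene the 2 surface antigens are set against below. Capitals mark the interferon-stimulated response element, searched as TTTC, 2 free bases and TTTC, or as its reverse complement, GAAA, 2 free bases and GAAA.
Ly6c2: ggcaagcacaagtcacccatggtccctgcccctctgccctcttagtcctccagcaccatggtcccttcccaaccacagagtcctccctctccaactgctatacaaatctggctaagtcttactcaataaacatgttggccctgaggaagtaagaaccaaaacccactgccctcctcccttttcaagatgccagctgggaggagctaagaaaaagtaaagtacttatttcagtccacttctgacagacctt
Isg15: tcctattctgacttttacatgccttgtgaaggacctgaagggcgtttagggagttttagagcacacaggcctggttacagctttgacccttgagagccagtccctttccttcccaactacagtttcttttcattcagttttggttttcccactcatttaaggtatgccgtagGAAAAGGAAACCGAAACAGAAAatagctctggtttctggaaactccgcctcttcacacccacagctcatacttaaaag
The Isg15 window held 3 overlapping matches, starting at -78, -72 and -66 from the start site. The Ly6c2 window held none, nor the gamma-activated sequence TTCNNNGAA. Among 32851 RefSeq promoter windows of the same 250 bases, 2.98% held the response element and 7.02% the gamma-activated sequence. A match describes letters in this window and shows no binding.

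The table held 14556622 UMIs (unique molecular identifiers, counted once per captured RNA molecule), with a median of 4423 per cell (461 to 12576). At least 1 UMI of a Cd3 or Cd8 chain was found in 3257 cells (99.7%), Cd8b1 in 96.6% and Cd44, the other sort marker, in 26.0%. Of the cells, 2964 shared their barcode with the lymph node receptor data and 12 with the skin receptor data. Of the barcodes present in all 3, numbering 11, none carried the same clone in both tissues. No other cell type was large enough to measure free RNA in, and its part in low counts was not tested.

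Ly6c2 was found in most cells and Ly6a in a minority. Ly6c2 totalled 30505 UMIs, or 2096 per 1000000 UMIs (CPM), with a median of 8 per cell and a maximum of 73. Ly6a totalled 2056 UMIs, 141 CPM, with a median of 0 and a maximum of 29. These are tag counts and not levels per transcript length.

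Ly6c2 was at 0 in 435 cells (13.3%, 12.2 to 14.5%), at 1 to 4 UMIs in 575 (17.6%) and at 5 or more in 2256 (69.1%, 67.5 to 70.7%). Ly6a was at 0 in 2464 cells (75.4%, 73.9 to 76.9%), at 1 to 4 in 689 (21.1%) and at 5 or more in 113 (3.46%, 2.86 to 4.15%). The 10% of cells with the most Ly6a held 72.9% of its UMIs, against 27.9% for Ly6c2. Just outside and just inside the highest class, Ly6c2 had 131 cells at 4 UMIs and 140 at 5, and Ly6a had 57 at 4 and 30 at 5, so the Ly6a class depends more on where its boundary lies. These classes are ranges of counts and not cell types.

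**Figure D1:**
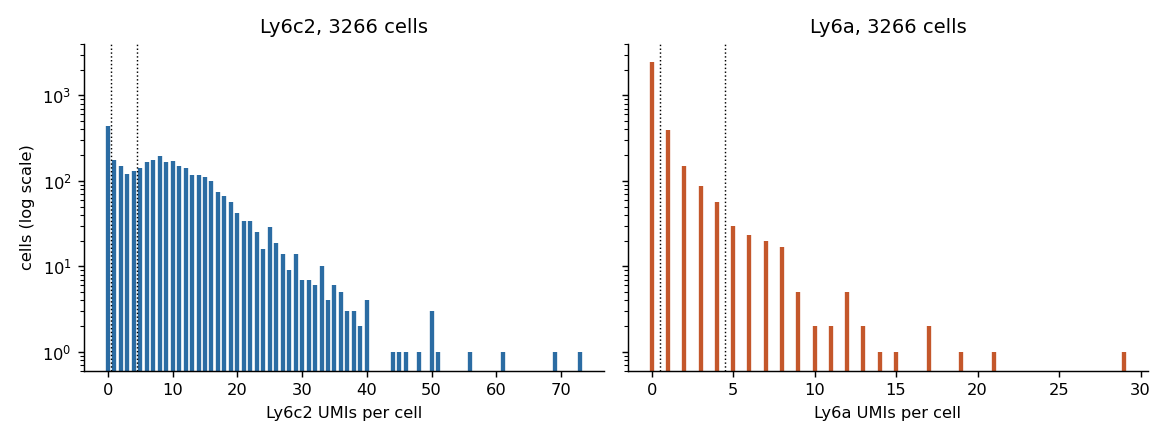
UMIs of Ly6c2 (left) and Ly6a (right) per cell on the x axis against the number of cells on a log scale, 3266 cells each, with dotted lines between the classes 0, 1 to 4 and 5 or more. Ly6c2 has a group of 435 cells at 0 and a broad second hump around its median of 8, while Ly6a falls off from 2464 cells at 0 to a tail that ends at 29.

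Ly6c2 was spread more widely than counting alone spreads a gene. With each of 3090 cells thinned to 1500 UMIs (176 shallower cells left out), the variance of Ly6c2 was 2.14 times its mean, the third highest of 37 genes of similar mean, whose median was 1.19. That of Ly6a was 2.68 times its mean, the fifth highest of 591 genes, whose median was 1.02. After thinning, 18.1% of cells were at 0 for Ly6c2 and 86.5% at 0 for Ly6a, and 22 cells still had 5 or more Ly6a UMIs.

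Cells without Ly6c2 were shallower. Their median was 2465 UMIs, against 2934 at 1 to 4 and 4894 at 5 or more, and the median share of their UMIs in ribosomal protein genes was 30.6%, against 40.0% and 44.1%. Across Ly6a classes the median depth was 4398, 4570 and 4173 UMIs and the ribosomal share 43.2%, 41.6% and 35.0%. Mitochondrial shares lay between 2.51% and 2.68% in all 6 of these classes. The part of depth was looked at by thinning for classes of single genes, the pair relation, correlations, the main comparisons and the clusters. It was not for the split by Isg15 and Itgae together, the comparisons added later, partner shares across joint classes, clones or markers of other cell types. Cells high for both genes were too few after thinning for a comparison with cells that had neither.

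The 2 antigens met less often at high counts than the product of their separate frequencies, and high Ly6a was over-represented where Ly6c2 was missing. Of the 113 cells with 5 or more Ly6a UMIs, 37 had no Ly6c2 UMI, where the margins give 15.1, a ratio of 2.46 (1.73 to 3.38). Another 52 had 5 or more of both, where the margins give 78.1, a ratio of 0.666 (0.498 to 0.871). The largest class, 1752 cells (53.6%), had 5 or more Ly6c2 and no Ly6a, and 266 cells (8.14%) had neither. With the highest class starting at 3 UMIs the corresponding ratios were 2.39 and 0.722.

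**Figure D2:**
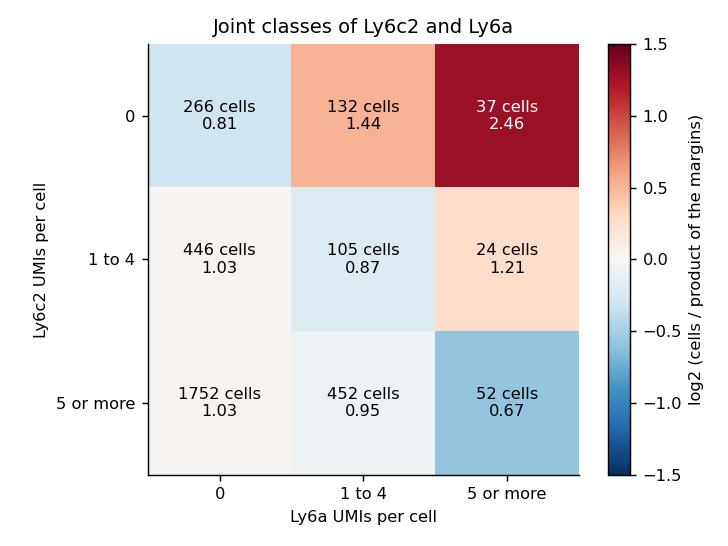
Cells by class of Ly6c2 (rows) and Ly6a (columns), with the number of cells, its ratio to the product of the margins, and a color scale for the log2 of that ratio. The 37 cells with high Ly6a and no Ly6c2 stand at 2.46 and the 52 cells high for both at 0.67.

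Over all 3266 cells, Pearson's r between the 2 genes on a log scale was -0.22 and Spearman's rho -0.11, weak relations in sparse counts that are given as a description. The cells share a library, and the relation moved with depth. In 4 bins of rising depth r was -0.23, -0.19, -0.13 and 0.03, and the ratio of cells high for both to the margins was 0.329, 0.494, 0.598 and 0.973. For high Ly6a without Ly6c2 the ratio was 1.25 (0.757 to 1.94), 5.49, 11.1 and 1.33 (0.034 to 7.40). These rested on 19, 11, 6 and 1 cells, so the excess lay in the middle bins. After thinning that ratio was 3.77 (2.11 to 6.21), from 15 cells. Within the 7 clusters described below, r lay between -0.17 and 0.06.

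The 52 cells high for both genes were deep, with a median of 6240 UMIs, and carried more barcodes with 2 or more TRB chains, which can mark 2 cells in a droplet. Such barcodes made up 16 of the 49 with a TRB chain (32.7%, 19.9 to 47.5%), against 315 of 2902 over all cells (10.9%) and 22.8% of the deepest bin of 815 cells. Among the cells with high Ly6a and no Ly6c2 they were 5 of 32. Without barcodes of 2 or more TRB chains, 36 cells were high for both. In those 36 cells Gzmb summed to 97.5 CPM, against 181 CPM in all 52, and Plac8 was found in 58.3%, against 61.5%.

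Isg15 separated Ly6a more than Ly6c2. In the 2789 cells with no Isg15 UMI, Ly6a stood at 116 CPM (110 to 122), in the 426 with 1 to 4 at 225 (206 to 246) and in the 51 with 5 or more at 566 (485 to 657). Cells with 5 or more Ly6a made up 2.58%, 6.81% and 23.5% (12.8 to 37.5%) of them. Ly6c2 was 2069, 2117 and 2992 CPM across the same classes, and it was detected in 86.9%, 85.4% and 86.3% of cells. The median count of Ly6c2 was 15 UMIs per cell at 5 or more Isg15 and 8 at none, beside a median depth of 5809 and 4360 UMIs. In thinned cells Ly6c2 was detected in 82.5% of those with no Isg15 and 75.7% (69.4 to 81.2%) of those with 1 to 4.

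After thinning, cells with any Isg15 UMI differed from those with none by a log2 ratio of 1.23 in Ly6a and -0.042 in Ly6c2. Thinned classes at 5 or more Isg15 hold 5 cells and are not compared.

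Itgae moved the 2 genes in opposite directions. In the 2882 cells with no Itgae UMI, Ly6c2 was 2198 CPM (2172 to 2224), in the 367 with 1 to 4 it was 1295 (1239 to 1354), and in the 17 with 5 or more it was 631 (458 to 847). Ly6a was 107 (101 to 112), 419 (387 to 452) and 502 CPM (350 to 698). Ly6c2 was detected in 90.7%, 56.9% and 47.1% of these cells and Ly6a in 21.4%, 47.7% and 52.9%. Thinning left the contrast of 1 to 4 Itgae UMIs with none at 620 against 2071 CPM for Ly6c2 and at 613 against 129 CPM for Ly6a.

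Read by Ccl5 class, Ly6c2 rose with Ccl5 and Ly6a did not. Read by class of the antigens, as given below, summed Ccl5 was even for Ly6c2 (log2 ratio 0.05) and higher with high Ly6a (0.72). Both of those values moved with the cluster left out. Ly6c2 was 1426 CPM (1376 to 1477) in the 589 cells without Ccl5, 1986 (1938 to 2034) in the 831 with 1 to 4 UMIs and 2295 (2264 to 2327) in the 1846 with 5 or more. The share of cells with 5 or more Ly6c2 went from 39.0% to 61.5% and 82.1%, beside a median depth of 3546, 4050 and 4727 UMIs. In thinned cells, classed by their thinned Ccl5 counts, Ly6c2 was 1551, 2141 and 2172 CPM. The share with 5 or more Ly6c2 was then 16.3%, 25.4% and 26.5%, and the intervals of the classes with Ccl5 overlapped. Ly6a was 185, 141 and 131 CPM, and after thinning 174, 126 and 186 CPM, with no order.

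**Figure D3:**
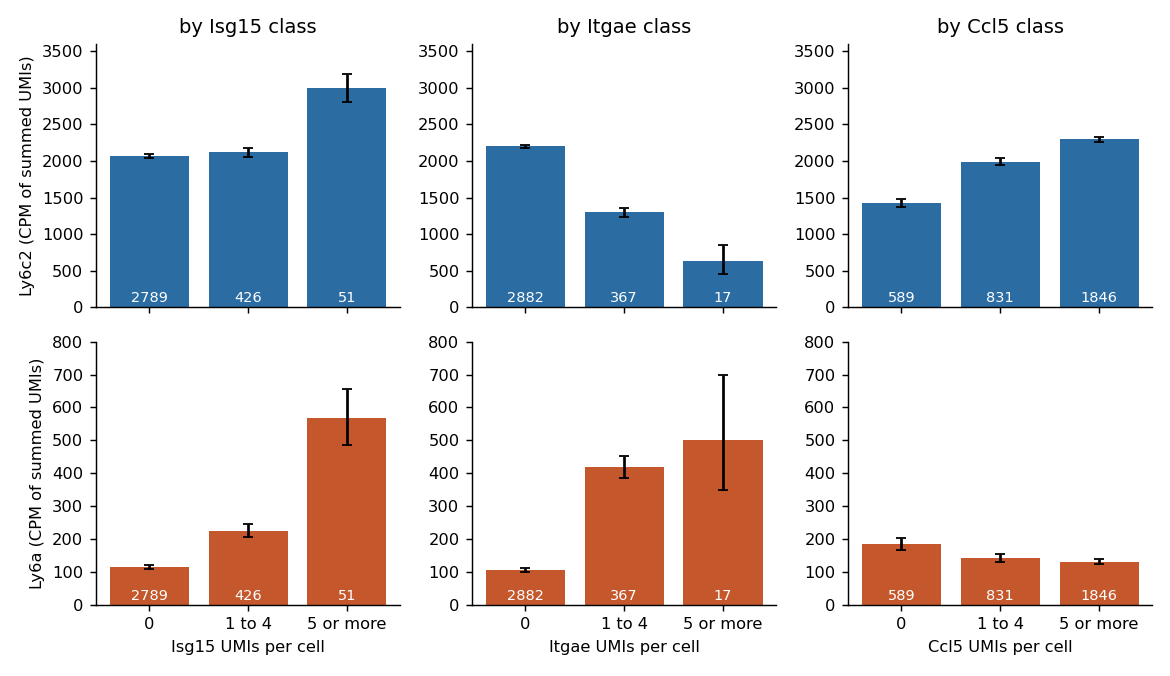
Ly6c2 (top, blue) and Ly6a (bottom, orange) in CPM of UMIs summed over cells of each class of Isg15, Itgae and Ccl5; bars carry exact 95% counting intervals and, in white, the number of cells. Ly6a is at 566 CPM in cells with 5 or more Isg15 UMIs and at 502 CPM in those with 5 or more Itgae, whereas Ly6c2 is at 2992 CPM in the former and 631 CPM in the latter.

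The cells were then divided by Isg15 and Itgae together. In the 2471 cells with neither, Ly6a was 82.8 CPM and Ly6c2 2163 CPM. In the 411 with Isg15 alone, Ly6a was 231 CPM (210 to 252) and Ly6c2 2381 (2315 to 2448). In the 318 with Itgae alone, Ly6a was 404 CPM (370 to 441) and Ly6c2 1243 (1182 to 1307). The 66 cells with both had 484 CPM of Ly6a (415 to 561) and 1345 of Ly6c2 (1228 to 1469), and 21.2% of them had 5 or more Ly6a UMIs (12.1 to 33.0%). Ly6a was thus above its level in the first set in all 3 others, while Ly6c2 was above it only in the set with Isg15 alone.

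Ly6c2 was set against every other gene by comparing the 2256 cells with 5 or more UMIs with the 435 at 0, on CPM that leave out the 2 antigens' own counts, with 1 CPM added before the log2 ratio. Of 8834 genes with enough counts, 1.78% were at least 2-fold higher and 8.41% at least 2-fold lower, 157 and 743 genes. The median gene was shifted by -0.38 between the 2 sets, and with that shift removed the split was 400 higher and 262 lower. All values that follow are before that removal and are to be read against it.

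The genes most in excess where Ly6c2 was high were led by Plac8, Gzmm, G0s2 and Pde2a. Plac8, a small cysteine-rich protein, was at 205 against 29.8 CPM (log2 ratio 2.74, 2.29 to 3.31). Gzmm, the granule protease granzyme M, was at 124 against 18.4 CPM (2.69), and G0s2, an inhibitor of fat breakdown, at 51.6 against 6.13 CPM (2.88). Pde2a, a cyclic nucleotide phosphodiesterase, was at 111 against 14.9 CPM (2.82). Plac8 was found in 53.8% of the cells with high Ly6c2 and in 5.75% of those without.

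The rest of the 8 highest ratios were Gm28935, 1700025G04Rik, Zfp296 and Ifngas1, from 2.07 to 2.73. Ifngas1 is an antisense gene, and no source used here says whether the counting used strand.

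Bcl2 and the Ly49 receptor genes were also higher there. Bcl2, which protects lymphocytes from death, was at 304 against 75.3 CPM, and Eomes, a transcription factor of memory CD8 cells, at 90.7 against 44.6 CPM (1.01). A list of 6 genes held Klra genes, which encode the Ly49 receptors for class I MHC, and their neighbor Klre1, which is not a Klra gene. Of these, 4 were at least 2-fold higher and none lower, with a median of 1.45. Klre1 (1.27) was among the 4. Klra6 was at 0.89, and Klra9, at 0 UMIs on the low side, was at least 1.77-fold higher; with it at that limit the median was 1.28. Klra3 was at 28.6 against 4.38 CPM (2.46) and Klra7 at 31.8 against 9.63 CPM (1.62). Klra genes are near-copies of each other and their counts may be split among them. Other NK receptors differed in direction, with Klrk1, which encodes the activating receptor NKG2D, at 31.5 against 93.7 CPM (-1.54), Klrc1 at -0.89 and Klrd1 at 0.34.

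Inhibitory receptors and other genes of an anergy-like list were among the lowest. In a list of 14 such genes tested, 12 were at least 2-fold lower and none higher, with a median of -3.15 against -0.36 over all genes tested. Wnt10a, a secreted signaling protein, was at 2.58 against 75.3 CPM (-4.41, -5.52 to -4.25). Ctla4, an inhibitory receptor, was at 5.85 against 109 CPM (-4.00), and Izumo1r, the folate receptor 4 known from anergic and regulatory T cells, at 9.98 against 117 CPM (-3.43). The other 2 genes, Nr4a2 and Nr4a3, stood at 0.13 and 0.22. Without cluster 7, whose leading gene is Izumo1r, the list's median was -0.96.

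Trat1, an adaptor of the T cell receptor, was at 5.59 against 123 CPM (-4.23), and Cd40lg at 2.67 against 58.7 CPM (-4.02). Gzmk, Cd200, Lag3 and S100a4 completed the 8 lowest, from -4.06 to -3.79.

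Among 15 residency genes, 8 were at least 2-fold lower where Ly6c2 was high and 1 higher, with a median of -1.56. Itgae was at 19.1 against 270 CPM (-3.75, -4.07 to -3.57) and Ccr10, a receptor for skin chemokines, at 2.32 against 53.4 CPM (-4.03). Cd69, which holds T cells in tissue, was close to even at 289 against 261 CPM (0.15), and Xcl1, a chemokine that draws dendritic cells, was the 1 higher gene at 107 against 42.0 CPM (1.32).

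Among 15 effector genes, 9 were at least 2-fold lower and Gzmm alone was higher, with a median of -1.67. Gzma was at 14.9 against 209 CPM (-3.73), Gzmb at 9.90 against 81.4 CPM (-2.92), and Id2, a regulator of effector differentiation, at 62.7 against 493 CPM (-2.96). That median turned to 0.45 without cluster 6, so it rested on those 183 cells.

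Ccl5 itself was even, at 2789 against 2686 CPM (0.05, 0.00 to 0.11), although it was detected in 89.8% of cells with high Ly6c2 and 55.6% of those without. The set without Ly6c2 was mixed: its log2 ratio for Ccl5 was 1.58 without cluster 6 and -0.95 without cluster 7. Isg15 was at 68.2 against 128 CPM (-0.90, -1.16 to -0.64), while being detected in 15.4% and 15.9% of cells. Of 52 interferon-stimulated genes 16 were at least 2-fold lower and 1, Ms4a4c at 212 against 102 CPM (1.06), higher, with a median of -0.75.

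The recirculation genes, which let T cells enter and leave lymph nodes, had a median of -0.36 and of 0.02 once the shift was removed. Klf2, a transcription factor of recirculating T cells, was at 728 against 546 CPM (0.41), and Itgal, the LFA-1 chain, at 109 against 230 CPM (-1.07). Of 13 genes, 3 were at least 2-fold lower and none higher. The 6 sort genes were all lower, by a median of -0.70, with Cd8a at 489 against 1152 CPM (-1.23) and Cd44 at 63.9 against 137 CPM (-1.08).

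Ly6a was compared in the same way, 113 cells with 5 or more UMIs against 2464 at 0. Of 8686 genes tested, 4.14% were at least 2-fold higher and 4.02% at least 2-fold lower, 360 and 349 genes, the latter 299 (3.44%) with genes at 0 UMIs set to their limit. With the shift of the median gene, 0.16, removed, the split was 233 and 460. The high set holds few UMIs, so single cells weigh more here than for Ly6c2.

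Interferon-stimulated genes stood higher together where Ly6a was high. Of 52, 25 were at least 2-fold higher and none lower, 49 were above 0, and the median was 0.99 against 0.15 over all genes tested. Isg15 was at 353 against 46.9 CPM (2.88, 2.66 to 3.16), in 36.3% against 11.5% of cells, with 15.1% of its UMIs from 1 cell. Irf7, a transcription factor that amplifies interferon production, was at 189 against 59.1 CPM (1.66), and Bst2, which tethers virus particles to the cell, at 404 against 147 CPM (1.46).

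Without cluster 5, led by interferon genes, the Isg15 ratio was 1.78 and the list's median 0.81. In thinned cells Isg15 was 1.38 higher in the 416 cells with any Ly6a UMI, while the 22 thinned cells with 5 or more held no Isg15 UMI.

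The receptors and signaling genes upstream of them did not move as a group. Of 13, 3 were at least 2-fold higher, among them Jak2 (1.24) and Stat2 (1.05), and 1, Socs3, lower (-1.06), with a median of 0.11. Ifnar1, a chain of the type I interferon receptor, was at 53.4 against 50.8 CPM (0.07), and Ifngr1, of the interferon gamma receptor, at 152 against 261 CPM (-0.77).

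The effector list, which holds granzymes, Prf1 and Nkg7 as well as S100a4, S100a6, Lgals3, Id2 and Ccl5, was higher where Ly6a was high. Of its 15 tested genes, 10 were at least 2-fold higher and 1, Gzmm, lower (57.2 against 117 CPM, -1.02), with a median of 1.86. Gzmb was at 202 against 4.18 CPM (5.29, 5.08 to 6.13), but in 17.7% of the high cells, and 34.0% of its UMIs came from 1 cell. Gzma was at 173 against 7.80 CPM (4.31), in 14.2% of them. Prf1, the pore-forming perforin, was even at 62.9 against 61.8 CPM (0.02), and Nkg7, a granule protein, was at 0.38. S100a4, a calcium-binding protein of motile cells, was at 438 against 25.9 CPM (4.03, 3.82 to 4.34), in 47.8% against 6.17% of cells, with 6.52% of its UMIs from 1 cell. The remaining leaders, Ccr10, Lgals3, Itga1, Fgl2 and Cd40lg, had ratios from 3.24 to 3.58, and Itga1 stood at -1.43 without cluster 6.

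Itgae, among 13 residency genes of which 6 were at least 2-fold higher and none lower, was at 213 against 29.4 CPM (2.82, 2.53 to 3.17), in 45.1% against 8.12% of cells. Cxcr6, a chemokine receptor of resident cells, was at 498 against 125 CPM (1.99). Cd69 was even at 267 against 291 CPM (-0.12). Ccl5 was at 4336 against 2630 CPM (0.72), and at -0.34 without cluster 6.

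Of 13 anergy-like genes 8 were at least 2-fold higher, with a median of 1.60. Nr4a2 was lower from 1 UMI (-1.45, -7.19 to 0.65), and Nr4a3, at 0 UMIs on the high side, was at least 1.19-fold lower. Nrn1, a GPI-anchored neuritin, was at 38.1 against 8.63 CPM (2.02) and Ctla4 at 51.5 against 13.6 CPM (1.84). Without cluster 7 the median of that list was -0.88.

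Of 5 tested genes of the Ly49 list 4 were at least 2-fold lower where Ly6a was high, with a median of -1.98. Klre1, from 4 UMIs on the high side, was among the 4. Klra1, at 0 UMIs on the high side, was at least 1.41-fold lower, and with it at that limit the median was -1.42. Klra7 was at 5.72 against 33.7 CPM, from 3 UMIs on the high side. No recirculation gene passed 2-fold in either direction; Ccr7 was at 122 against 218 CPM (-0.83). The 8 lowest ratios belonged to Parn, Smyd3, Prag1, Rpgrip1, Pmm2, Atp1b1, Lpin1 and Prss12, from -2.44 to -1.43, each resting on 2 to 10 UMIs in the high set.

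Ly6c2 was slightly lower in the high Ly6a class when summed (1969 against 2104 CPM, -0.10, -0.19 to -0.01), although it was detected in 67.3% of cells with high Ly6a and 89.2% of those without. The sum hides a split: the 113 cells divide into 37 without Ly6c2, 24 with 1 to 4 UMIs and 52 with 5 or more.

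That split was followed by comparing 5 or more with 0 Ly6c2 UMIs among the cells with high Ly6a only, 52 against 37 cells, a comparison added after the data were seen. Of 1109 genes tested, 3.52% were at least 2-fold higher and 6.85% at least 2-fold lower. With Ly6c2, Plac8 was at 384 CPM against 0 UMIs, at least 14.9-fold higher, and Bcl2 at 173 CPM against 1 UMI (4.18, 1.79 to 9.66). Isg15 was at 417 against 207 CPM (1.01, 0.38 to 1.70).

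Without Ly6c2, S100a4 was at 1025 against 119 CPM (-3.09, -3.66 to -2.58), Itgae at 534 against 83.5 CPM (-2.66, -3.38 to -2.01) and Ccl4, an inflammatory chemokine, at 336 against 56.6 CPM (-2.55). Gzmb was at 182 CPM with Ly6c2 and 121 CPM without (0.59), and 36 of its 61 UMIs in the 52 cells came from 1 cell, without which it was at 76.7 CPM and the ratio at -0.65. In the 37 cells, 48.7% of the Ccl4 UMIs and 45.8% of the Isg15 UMIs came from the 1 cell highest for that gene. Without that cell the ratio was -1.65 for Ccl4 and 1.83 for Isg15. The lists differed in direction: 3 of 8 stem-like memory genes were at least 2-fold higher and none lower with Ly6c2, and 6 of 9 effector genes at least 2-fold lower and none higher.

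The cells without Ly6c2 divided as well. Among them, the 37 with high Ly6a were set against the 266 with none, again a comparison added after the data were seen, with 3.09% of 2203 genes at least 2-fold higher and 4.36% lower. S100a4 was at 1025 against 163 CPM (2.65) and Cxcr6 at 947 against 266 CPM (1.83). Gzma was at 353 against 17.9 CPM (4.23), and at 142 CPM (2.91) without the cell that held 61.0% of its UMIs. Ccl5 was at 5934 against 1414 CPM (2.07), and at 3602 CPM (1.35) without the cell that held 42.2% of its UMIs. Of 9 effector genes 8 were at least 2-fold higher and none lower.

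In the cells with neither antigen, stem-like memory genes were higher. Of 12 stem-like memory genes 9 were at least 2-fold lower with high Ly6a and none higher, a median of -1.42, among them Ccr7 (77.5 against 320 CPM, -2.03), Lef1, a transcription factor of naive and stem-like cells (60.3 against 208 CPM, -1.77), and Slamf6 (94.7 against 214 CPM, -1.17). Of 6 anergy-like genes 2 were at least 2-fold lower with high Ly6a and none higher: Izumo1r was at 68.9 against 148 CPM (-1.09) and Wnt10a at 25.8 CPM, from 3 UMIs, against 88.2 CPM (-1.73). Ctla4 was at 146 against 109 CPM (0.42, -0.43 to 1.20).

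The opposite corners, 1752 cells with high Ly6c2 and no Ly6a against 37 with high Ly6a and no Ly6c2, had 13% of 8172 tested genes at least 2-fold higher and 19.2% at least 2-fold lower. Many of those higher had no UMI in the 37 cells, and with such genes set to their limit 323 genes, 3.95%, were at least 2-fold higher. The 5 tested genes of the Ly49 list were among those without a UMI there, and at their limits none passed 2-fold. No such limit holds for the lower side. In the 37 cells 3 UMIs make 25.8 CPM, so genes scarce in the 1752 cells can pass 2-fold lower from few UMIs. The shares of 3.95% and 19.2% are therefore not to be read against each other. Lowest were S100a4 at 13.6 against 1025 CPM (-6.13), Trat1 (-5.67), Gzma (-5.52, or -4.20 without the 1 cell that held 25 of its 41 UMIs) and Itgae at 12.3 against 534 CPM (-5.33). Plac8 at 186 CPM, Gzmm at 131 and Pde2a at 116 had no UMI in the 37 cells, whose sum is 116115 UMIs, which makes them at least 7.20-fold, 5.06-fold and 4.51-fold higher.

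Cells high for both against cells with neither, 52 against 266, had 1.37% of 2700 tested genes at least 2-fold higher and 7.48% lower. Plac8 was at 384 against 26.9 CPM (3.79). Gzmb was at 182 CPM against 1 UMI (6.20, 4.39 to 12.25), but it was found in 8 of the 52 cells and was at 76.7 CPM (4.96) without the 1 cell that held 36 of its 61 UMIs. Gzma was at 122 against 17.9 CPM (2.70), and at 73.0 CPM (1.97) without the 1 cell that held 17 of its 41 UMIs. Isg15 was at 417 against 114 CPM (1.87, 1.46 to 2.30), 2.04 without barcodes of 2 or more TRB chains and 0.18 without cluster 5. Trat1, Icos and Ctla4 were lowest, from -2.88 to -2.79. Ccl5 was at 3890 against 1414 CPM (1.46). Itgae was lower in the cells high for both, at 83.5 against 212 CPM, with a ratio of -1.53 without its highest cell.

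Shares of cells with a partner UMI were also taken across the 9 joint classes. Itgae was found in 67.6% (50.2 to 82.0%) of the cells with high Ly6a and no Ly6c2, in 28.8% (17.1 to 43.1%) of those high for both and in 4.34% of those with Ly6c2 alone. Isg15 was found in 24.3% (11.8 to 41.2%), 46.2% (32.2 to 60.5%) and 12.3% of the same classes, and the intervals of the first and second overlap. Median depth in these classes was 3069, 6240 and 4795.5 UMIs, and its part in the shares was not tested. Among the 36 cells high for both without a second TRB chain, Itgae was found in 22.2% and Isg15 in 44.4%. Plac8 was found in 0 of the 37 cells, which allows a share of up to 9.49%. It was found in 61.5% of the cells high for both and in 51.1% of those with Ly6c2 alone. In the 266 cells with neither antigen, at a median depth of 2309 UMIs, Itgae was found in 31.6% (26.0 to 37.5%) and Isg15 in 12.8%. Itgae was thus no rarer there than in the cells high for both.

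**Figure D4:**
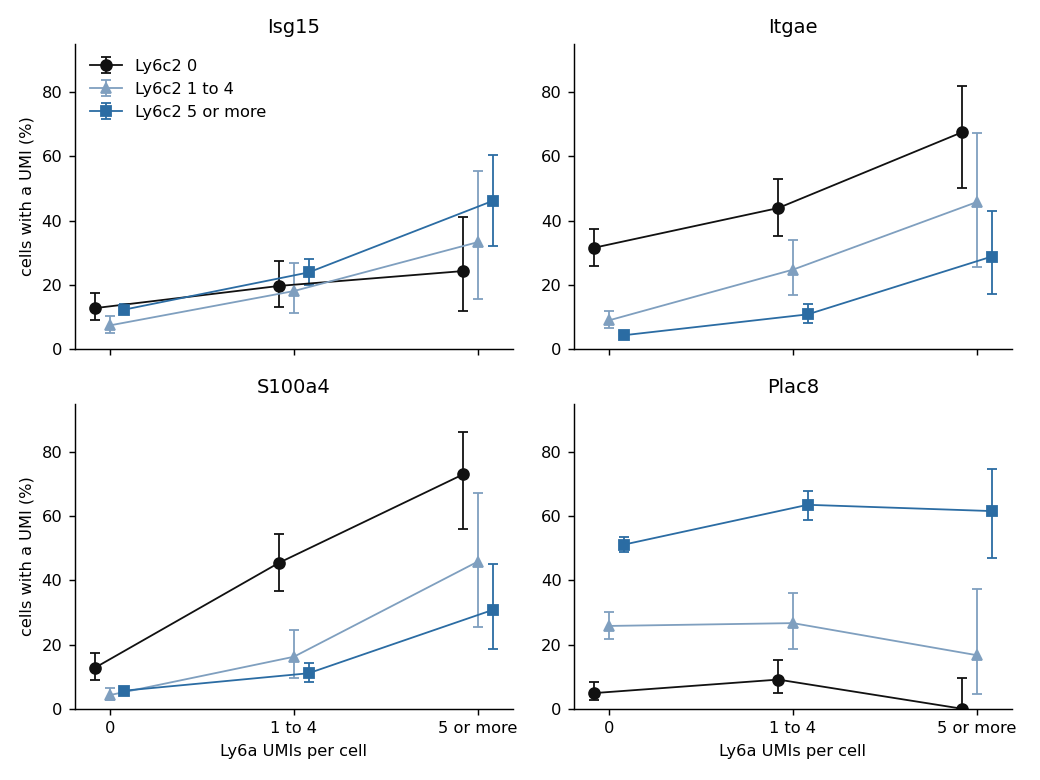
Share of cells with a UMI of Isg15, Itgae, S100a4 and Plac8 (y axis, percent, exact 95% intervals) by Ly6a class (x axis) and Ly6c2 class (color and symbol). Itgae and S100a4 reach 67.6% and 73.0% at high Ly6a without Ly6c2, Isg15 reaches 46.2% at high Ly6a with high Ly6c2, and Plac8 is at 51.1% to 63.5% in all 3 classes with high Ly6c2. The classes differ in median depth, and its part was not tested.

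The genes most like each antigen over single cells were ranked by Pearson's r on log values among 4130 genes found in at least 10% of cells, a description over 3266 cells that share 1 library. For Ly6c2 the lowest were Capg, an actin-capping protein (-0.41), Itgae (-0.38), Rgcc (-0.33), Id2 (-0.32) and S100a4 (-0.31), and all 5 were below 0 in each of 4 depth bins. Its highest were Eef1b2 (0.32), Nme2, Rack1, Bcl2 (0.31), Tpt1, Plac8 (0.30), Npm1, Hsp90ab1, Hspe1 and Eef1a1 (0.27). For Eef1b2 r was 0.14 after thinning, and depth was not separable from these relations.

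For Ly6a the order was close to the reverse. S100a4 (0.38), Id2 (0.34), Capg (0.33), S100a6 (0.30) and Itgae (0.29) came first, then H2-K1 (0.25), Cxcr6 (0.24), H2-D1 (0.23), Klrk1 (0.23) and Glrx (0.22). H2-K1 and H2-D1 are class I MHC chains, which interferons raise in many cells. Bcl2 (-0.18), Eef1b2, Rack1 and Klf2 (-0.15) were among the lowest.

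Of the other Ly6 family genes, Ly6e, Ly6g5b, Ly6k and Lypd6b had rows in the table. Ly6e, another interferon-raised family member, was at 2120 against 1245 CPM with high Ly6a (0.77) and at 1287 against 1704 CPM with high Ly6c2 (-0.40). Ly6g5b was sparse, at 32.4 CPM from 17 UMIs against 3.16 CPM with high Ly6a (3.01) and 3.70 against 14.9 CPM with high Ly6c2 (-1.76). Ly6k and Lypd6b had 2 to 55 UMIs per set of cells and their intervals spanned 0 in both comparisons.

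Unsupervised clusters, built without Ly6c2, Ly6a and receptor segments, are given by number. They were formed from the same cells, so their leading genes are a description. Ly6c2 was lowest in cluster 7 (412 cells, led by Izumo1r and Ctla4), at 855 CPM (810 to 903) with 46.6% of cells detected, and in cluster 6 (183 cells, led by Lgals3, Itga1 and Csf1), at 1114 CPM (1035 to 1197) with 48.1%. It was highest in cluster 5 (266 cells, led by Isg15, Ifit1 and Ifit3), at 2700 CPM (2613 to 2790).

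The other clusters held 2126 to 2493 CPM of Ly6c2, with 94.1% to 98.1% of cells detected. Clusters 2, 3 and 4 did not separate, at 2135, 2126 and 2164 CPM with overlapping intervals. Cluster 1, led by Gzmm and Ccl5, was at 2493 CPM (2441 to 2546).

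Ly6a followed another order. It was highest in cluster 6, at 777 CPM (711 to 847) and detected in 74.9% of cells, then 307 CPM (280 to 337) in cluster 7 and 266 (240 to 296) in cluster 5, which overlap. In clusters 1 to 4 it was 55.1 to 83.3 CPM. Clusters 6, 7 and 5 held 39, 38 and 20 of the 113 cells with high Ly6a. The 37 of them without Ly6c2 lay in clusters 6 (19), 7 (16) and 5 (2), the 52 with high Ly6c2 in clusters 5 (16), 6 (11), 7 (10) and others, and 146 of the 266 cells with neither antigen lay in cluster 7.

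Median depth was 2678 UMIs in cluster 6 and 3192 in cluster 7, against 3926 to 4921 in the rest, and after thinning Ly6c2 was detected in 44.6%, 37.5% and at least 87.3% of their cells.

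**Figure D5:**
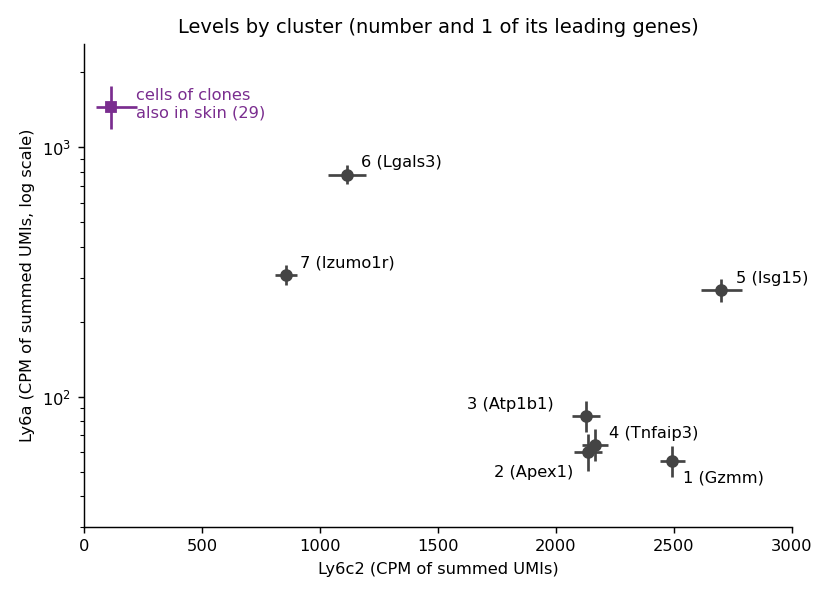
Ly6c2 (x axis, CPM) against Ly6a (y axis, CPM, log scale) for the 7 clusters, labeled by number and 1 of their leading genes, and for the 29 cells of clones also found in skin; error bars are exact 95% counting intervals. Clusters 5, 6 and 7 lie above 250 CPM of Ly6a and the others below 90 CPM, and only cluster 5 of those 3 keeps high Ly6c2.

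Receptor sequences linked the antigens to clones that were also present in skin. A clone was a shared TRA and TRB CDR3 nucleotide sequence, which 2135 cells with 1 TRB and 1 or 2 TRA chains could be given. The TRA with most UMIs was taken, and of the 29 cells below 2 had a second TRA, in 1 of them tied in UMIs and settled by the order of contig names. The 29 lymph node cells of 27 clones also seen in skin held 8 Ly6c2 UMIs in all, 114 CPM (49.4 to 225), against 2162 CPM (2133 to 2192) in 2106 cells of clones seen in the lymph node alone. Their Ly6c2 counts were 0 in 22 cells, 1 in 6 and 2 in 1. None of 29 reached 5, which allows a share of up to 11.9%, against 74.1% of the other cells.

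Ly6a went the other way, 1459 CPM (1190 to 1771) against 117 CPM (110 to 124). It was detected in 25 of the 29 cells, with a lowest count of 0, a median of 3 and a highest of 11, and 8 cells had 5 or more (27.6%, 12.7 to 47.2%), against 2.71% of the others. Itgae was found in 18 of the 29, Isg15 in 5 and Ccl5 in 27, the last at 17078 CPM. Of the 29, 26 lay in cluster 6 and 3 in cluster 7, and their median depth was 2305 UMIs against 4557. The low Ly6c2 of such clones was known from an earlier look at these files and is no independent support.

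Being expanded within the lymph node did not go with this pattern. The 98 cells of clones with 2 or more cells there and none in skin had 2004 CPM of Ly6c2 (1842 to 2177) and 140 CPM of Ly6a (99.3 to 191), at a median depth of 2595 UMIs, close to that of the 29 cells.

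Cells of 1 clone resembled each other in Ly6c2. Over 50 pairs of cells from 48 clones, 31 fell in the same of 3 Ly6c2 classes (62.0%, 47.2 to 75.3%), against 39.3% of all pairs among those 97 cells. The pairs fell on the same side of 0 in 88.0% (75.7 to 95.5%), against 69.5%. For Ly6a the same class was shared by 72.0% (57.5 to 83.8%), against 63.0%. The same side of 0 was shared by 78.0% (64.0 to 88.5%), against 64.6%, and the same side of 5 by 92.0%, against 92.0%. None of the 4 pairs with a high Ly6a cell had it in both cells. Pairs from clones share more than the antigens, such as cluster and depth, and the part of these was not tested.

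Marker genes of other cell types were looked up beside each class. B cell markers (7 of 11 in the table) summed to 382, 259 and 216 CPM with rising Ly6c2 class and 230, 233 and 334 with rising Ly6a class. Myeloid markers (5 of 13) summed to 168, 107 and 120, and 115, 138 and 163 CPM. NK cell markers (4 of 7) summed to 270, 111 and 114, and 107, 173 and 226 CPM, and plasmacytoid dendritic cell markers (2 of 7) to 190, 156 and 182, and 156, 220 and 422 CPM. The latter are Irf8 and Bst2. Bst2 is also in the interferon-stimulated list and was alone at 404 CPM with high Ly6a. CD4 T cell markers (4 of 6, among them Cd40lg, one of the leading genes above) summed to 87.5, 41.4 and 25.9 CPM with rising Ly6c2 class and 28.5, 38.0 and 83.6 with rising Ly6a class. Gamma delta T cell markers (2 of 8) summed to 43.7, 27.2 and 34.0, and 30.8, 37.7 and 76.0 CPM. Xbp1, the only 1 of 6 plasma cell markers in the table, was at 45.5, 28.3 and 18.2, and 21.8, 19.8 and 28.5 CPM. None of 6 erythroid and platelet markers and 1 of 13 endothelial and stromal markers had a row. Several of these genes are also expressed by T cells, and their part in the contrasts was not tested.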

How the data were processed

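The deposited table gives UMI counts per gene and cell, with no normalization by the authors. Bowtie, RSEM and mm10 are listed, per the submitters' processing notes, without their roles, versions or order. It held no cell above 4.99% mitochondrial UMIs and no gene found in fewer than 14 cells. Contig tables give the authors' UMI and read counts per receptor chain. A clone was the CDR3 pair of a barcode's 1 TRB and its TRA with most UMIs, ties going to the first contig name. No doublet caller was run.

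Counts were summed over cells of a class and divided by the class total (CPM). The gene comparisons leave Ly6c2 and Ly6a out of that total, and the levels by class, cluster and clone do not, so their CPM differ slightly. Log2 ratios add 1 CPM and carry exact conditional intervals. Genes counted as tested had 50 or more observed UMIs over both sets together, so a gene can pass through the set where it is high. A gene at 0 UMIs on a side has its fold set against 3 counts in that set of cells. Clusters used 2000 variable genes, 30 components, 15 neighbours, resolution 1 and seed 7. Correlations used log values scaled to 10000 UMIs per cell.

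Named genes are the 8 highest and 8 lowest ratios (with a UMI in 10% or more of the higher set's cells and 50 or more UMIs in all), the 10 highest and 5 lowest correlations, and the fixed partners, with the 2 highest and 2 lowest of each list. Other list members, among them Irf7 and Klf2, were named after their values were seen, and some genes the rule names are not reported here. The genes, lists and members were chosen with earlier results of these data known. GENCODE M21 matched 9361 of 9428 symbols, and RefSeq held a promoter for 1 of the 2 genes. Alternatives were thinning to 1500 UMIs, a class boundary at 3, median-of-ratios scaling, a prior of 10 CPM, no count filter, Spearman's rho and leaving out barcodes with 2 TRB chains. Leaving out a gene's highest cell, and counting genes at 0 UMIs by their limit, were added after seeing the data. The ratio code was tested on simulated data. Python 3.11.15, numpy 2.4.6, pandas 2.3.3, scipy 1.17.1, scanpy 1.11.5, igraph 0.11.9 and matplotlib 3.10.9 were used.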

Additional observations from a re-analysis of the deposited data

How the results depend on the processing

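No paired analysis was possible because the lanes of each library were pooled in the table and its columns carry no lane number. Depth limits the classes: at 1500 UMIs per cell 22 cells kept 5 or more Ly6a UMIs, and the thinned comparisons of cells high for both genes (1 cell), of 5 or more Isg15 (5 cells) and of 5 or more Itgae (4 cells) were not run. Of 664 values for single genes and list medians under the alternatives, 648 kept their sign, while 191 moved beyond their counting interval (list medians by over 1.5 times) and 10 reversed. Of the values and gene counts of the main comparisons 73 stayed within such bounds, 71 moved beyond them and 1 reversed. Leaving out the filter on low counts can change only gene counts and list medians. It moved none of the gene counts of the main comparisons by over 1.5 times. The cause of each change below was not tested, apart from fewer cells and UMIs under thinning.

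Spearman's rho in place of r was -0.11. Thinned, cells high for both made up 0.032% at a ratio of 0.20 to the margins. With high Ly6c2, the thinned log2 ratios were -0.36 for Isg15, -4.21 for Itgae and 0.17 for Ccl5, with 26 genes higher and 163 lower. With high Ly6a they were -5.85 for Isg15, 3.62 for Itgae, 0.80 for Ccl5, -2.86 for Cd40lg, 0.13 for Parn and 0.48 for Smyd3, with 1495 genes higher and 1697 lower. The 22 thinned cells with high Ly6a held 0 Isg15 UMIs. The value of -5.85 is thus set by the 1 CPM added and gives no size or direction. Between the opposite corners Isg15 was 5.94, which has the same limit, since the side with high Ly6a is part of those 22 cells. The ratio between 5 or more Ccl5 and none was 0.49 for Ly6c2 and 0.095 for Ly6a.

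Thinned, with 1 or more UMIs against 0 (chosen after seeing the data), Ly6c2 gave -2.75 for Itgae, with 77 genes higher and 217 lower. Ly6a gave 1.38 for Isg15, 2.37 for Itgae and 0.52 for Ccl5, with 130 higher and 81 lower. By Isg15 the ratio was -0.042 for Ly6c2 and 1.23 for Ly6a, and by Ccl5 it was 0.47 and -0.18. With classes from 3 UMIs, cells high for both were 4.38%, and Ly6a gave 2.39 for Isg15, 2.35 for Itgae and 0.62 for Ccl5, with 174 higher and 86 lower. The ratio by Isg15 was 0.37 for Ly6c2 and 1.82 for Ly6a, and that by Itgae -1.24 for Ly6c2.

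Median-of-ratios scaling gave -0.52 for Isg15, -3.37 for Itgae and 0.43 for Ccl5 with high Ly6c2 (400 higher, 262 lower), and 0.56 for Ccl5 with high Ly6a (233 higher, 460 lower). A prior of 10 CPM gave -3.26 for Itgae with high Ly6c2 (30 higher, 243 lower) and 2.50 with high Ly6a (122 higher, 23 lower). Without barcodes of 2 or more TRB chains, Ly6c2 by Isg15 was 0.64.

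Clusters were left out after seeing the data. Without cluster 5, r was -0.25, Isg15 was -1.67 with high Ly6c2 and 1.78 with high Ly6a, Ccl5 was 0.92 with high Ly6a, and Ly6c2 by Ccl5 was 0.76. Without cluster 6, r was -0.12, and with high Ly6c2 Ccl5 was 1.58 and the effector median 0.45. With high Ly6a, Isg15 was 3.30, Itgae 2.18, Ccl5 -0.34 and Itga1 -1.43, with 547 genes lower. Between the opposite corners Ccl5 was 2.44 and Gzma 2.57. Ly6a by Isg15 was 2.72 and by Ccl5 -1.10. Without cluster 7, Itgae was -4.56 and Ccl5 -0.95 with high Ly6c2 (287 genes higher), and with high Ly6a Isg15 was 3.35, Itgae 3.48, Ccl5 0.99 and the anergy-like median -0.88. Ly6a by Isg15 was then 2.63 and by Ccl5 -0.14, and Ly6c2 by Ccl5 0.33.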

Other observations

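Ribosomal protein genes were left out of the ranks of partner genes. Over 3266 cells, 86 of 87 had a Pearson's r above 0 with Ly6c2, with a median of 0.29, and 5 of 87 had one above 0 with Ly6a, with a median of -0.13. After thinning the medians were 0.17 and -0.13. A median over the 4130 ranked genes was 0.008 for Ly6c2 and 0.005 for Ly6a. These genes rise and fall with each other and with depth within the 1 library, so they are not independent points.

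Genes that make the GPI anchor, which both antigens need to reach the surface, did not follow either antigen as a list. Of 26 tested, 3 were at least 2-fold lower and none higher with high Ly6c2, a median of -0.24 against -0.36 over all genes tested. With high Ly6a, 2 were higher and none lower once the 1 gene at 0 UMIs was set to its limit, a median of 0.16 against 0.15. Cell cycle genes were at least 2-fold higher in 4 of 10 tested with high Ly6a and lower in none, where 4.14% of all genes were higher. Their median was 0.82 against 0.15. With high Ly6c2 2 of 11 were at least 2-fold lower and none higher, where 8.41% of all genes were lower. Their median of -0.12 lay above the -0.36 of all genes.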
